A study of Mus musculus with 2 samples.

Results

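Integrin chains and the adhesion molecule Cadm1 were followed in cultures of mouse mucosal mast cells between day 20 and day 4 of differentiation. The set was made of 10 genes: the integrin chains Itgae, Itgb7, Itga2b, Itgb3, Itga4, Itgb1, Itgam, Itgal and Itgb2, and Cadm1. A gene was included through probes present on both arrays whose accession or description resolved to it, and spots that the scanner software had marked were kept. This gave 9 genes with 1 probe each, out of 20868 gene probes in all. Itgb1 had no resolved probe. A probe for accession Y00769 is described only as a mouse integrin beta subunit, and its values are given under that accession without a gene name. The probe of Cadm1 is described by the older name Igsf4, and the probe of Itgal by the name LFA-1 of the receptor it forms.

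Both groups were cultures grown in a mixture of TGF-beta1, SCF (stem cell factor), IL-9 and IL-3, sampled at day 20 or at day 4. Total RNA was hybridised on 2 two-colour Agilent arrays, each of which held both days. On array 1 day 20 carried Cy5 and day 4 Cy3, and on array 2 day 20 carried Cy3 and day 4 Cy5. Every labelled RNA pooled 3 samples, and array 2 was hybridised with other pools than array 1, so each ± below is an SD over n = 2 arrays. The labels give neither the cells that were put into culture nor their mouse strain, and in pooled bulk RNA fewer cells of a type and less RNA per cell cannot be told apart.

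Integrins are receptors made of an alpha and a beta chain, which reach the cell surface as a pair and bind matrix proteins or counter-receptors on other cells. Itgb7 pairs with Itgae to form the E-cadherin receptor of cells lodged in epithelium, and with Itga4 to form a homing receptor of the gut that mast cell progenitors use. Itga2b and Itgb3 form the fibrinogen receptor of platelets, Itgam and Itgal pair with Itgb2 in the leukocyte integrins, and Itgb1 is the shared beta chain of many matrix receptors. Cadm1 is a cell adhesion molecule of the immunoglobulin superfamily through which mast cells attach to fibroblasts, nerves and other cells. Mucosal mast cells sit in and beneath the gut epithelium, and TGF-beta is known to induce Itgae in mast cells.

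Promoter sequences were at hand for 5 of the 10 genes (RefSeq, build GRCm38.p6, 250 bases before to 50 bases after the gene start). The sequences of 4 are printed, those of 2 chains that rose at day 20 (Itga2b, Itgb7) and of 2 chains that did not pass the test (Itga4, Itgam), so that chains with different outcomes can be read beside each other. Capitals mark matches, on either strand, to short words bound by factor families of blood cells.
Itga2b, chr11:102469834-102470133, minus strand: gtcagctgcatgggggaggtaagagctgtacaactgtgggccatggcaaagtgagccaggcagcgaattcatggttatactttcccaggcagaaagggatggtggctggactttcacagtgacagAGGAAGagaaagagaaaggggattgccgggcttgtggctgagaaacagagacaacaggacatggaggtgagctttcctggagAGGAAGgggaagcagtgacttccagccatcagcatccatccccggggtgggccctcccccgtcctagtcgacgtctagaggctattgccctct
Itgb7, chr15:102231886-102232185, minus strand: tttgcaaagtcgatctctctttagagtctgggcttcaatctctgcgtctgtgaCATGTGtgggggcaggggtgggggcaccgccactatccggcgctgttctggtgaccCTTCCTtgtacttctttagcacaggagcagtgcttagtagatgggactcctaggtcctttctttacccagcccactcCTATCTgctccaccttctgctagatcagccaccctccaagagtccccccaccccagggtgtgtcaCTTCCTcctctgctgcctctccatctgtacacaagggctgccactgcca
Itga4, chr2:79255176-79255475, plus strand: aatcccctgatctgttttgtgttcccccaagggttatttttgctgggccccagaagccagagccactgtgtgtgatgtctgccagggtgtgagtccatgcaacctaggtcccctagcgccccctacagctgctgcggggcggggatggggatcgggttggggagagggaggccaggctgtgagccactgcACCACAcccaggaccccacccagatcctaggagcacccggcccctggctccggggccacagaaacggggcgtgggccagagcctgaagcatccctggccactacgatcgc
Itgam, chr7:128062390-128062689, plus strand: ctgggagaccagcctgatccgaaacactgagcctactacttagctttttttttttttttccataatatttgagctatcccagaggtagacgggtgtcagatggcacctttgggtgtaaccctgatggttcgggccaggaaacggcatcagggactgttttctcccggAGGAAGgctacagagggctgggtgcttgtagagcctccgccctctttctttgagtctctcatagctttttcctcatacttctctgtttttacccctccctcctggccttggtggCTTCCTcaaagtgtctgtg
For GATA factors the words searched were AGATAA or AGATAG or TGATAA or TGATAG, for ETS factors AGGAAG or CGGAAG, for RUNX TGTGGT or TGCGGT, for STAT TTCNNNGAA, and for MITF CATGTG or CACGTG. No marked words overlapped in these 4 promoters. With the gene's first base counted as 1 and the base before it as -1, the Itga2b promoter held ETS words starting at -125 and -43. The Itgb7 promoter held an MITF word at -197, a GATA word at -64 and ETS words at -141 and 2. The Itga4 promoter held a RUNX word at -60, and the Itgam promoter held ETS words at -83 and 32. Of 32851 mouse promoters of the same length, 29.8% held a GATA word, 46.5% an ETS word, 22.4% a RUNX word, 8.30% a STAT word and 20.4% an MITF word. A match describes the letters of these windows and is not a shown binding site.

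The scanner software called 90.5% to 93.1% of gene spots well above background in the day 20 channels and 80.0% to 96.2% in the day 4 channels. A probe was tested if it was well above background in both channels of either day, which left 18471 probes, the 9 probes of the set among them. Over these probes the log2 ratios of the arrays had a Pearson r of 0.77, which is a correlation across probes and not across replicates, and the pooled SD between arrays was 0.19. The cultures carried mast cell transcripts at both days, and 11 of 14 tested mast cell markers rose, among them Fcer1a, the alpha chain of the IgE receptor, by 2.11 ± 0.01 on the log2 scale (limma adjusted p = 1.43e-07). In all tests, limma's moderated test of the log2 ratio against 0 was used, with Benjamini-Hochberg adjustment over the 18471 probes and a threshold of 0.05.

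Of the 9 genes of the set, 4 rose at day 20 (Cadm1, Itga2b, Itgb7 and Itgae), 1 fell (Itgb2) and 4 did not pass the test (Itgb3, Itga4, Itgam and Itgal). Among all tested probes 7.82% rose and 9.13% fell, 17.0% in either direction. The log2 ratios of the set ran from -0.48 for Itgb2 to 2.36 for Cadm1, with a median of 0.06 that is the value of Itgb3, while the median over all tested probes was -0.0070. A 2-fold rise on both arrays was reached by Cadm1, Itga2b and Itgb7, that is by 3 of the 9 genes, and by 1.10% of all tested probes. The genes were chosen with earlier results of these data known, so these counts describe the set and do not test it.

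**Figure D1:**
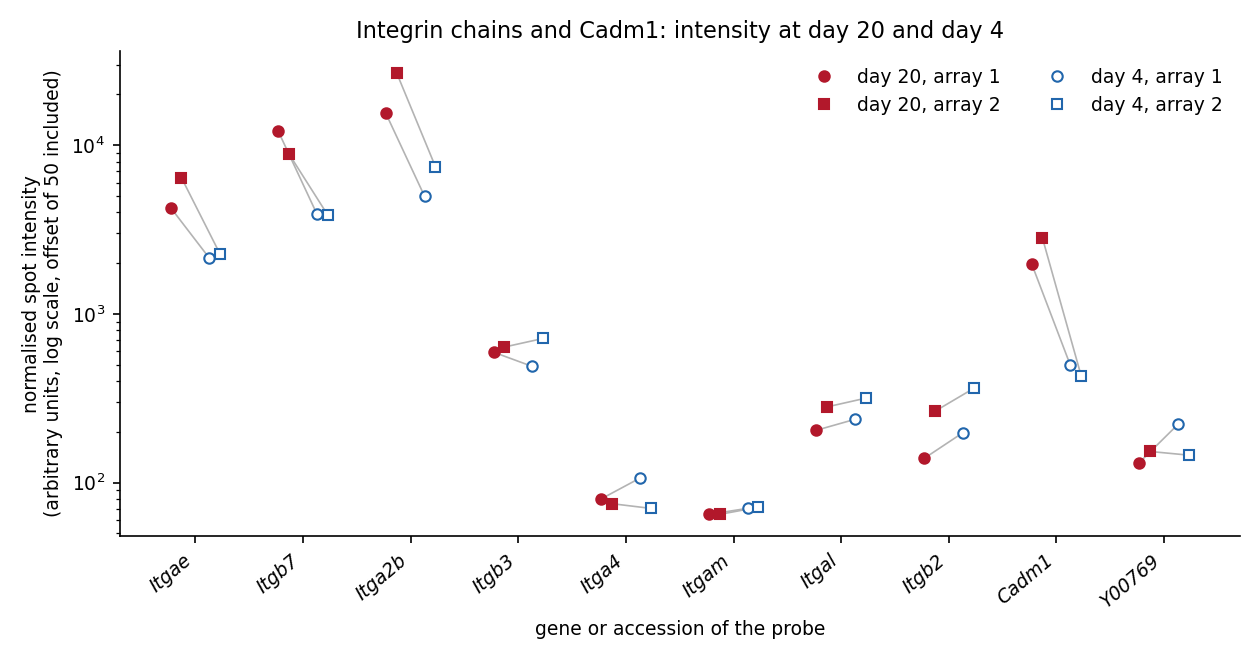
Normalised spot intensity of each probe of the set and of accession Y00769, in arbitrary units on a log axis with the offset of 50 included, at day 20 (filled) and day 4 (open) on array 1 (circles) and array 2 (squares), with a line joining the channels of an array. Itgae, Itgb7, Itga2b and Cadm1 were brighter at day 20 on both arrays, and Itga4 and Itgam lay between 64.8 and 106 in all 4 channels.

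Itgae, the alpha chain known as CD103, had normalised intensities of 4266 and 6427 at day 20 on arrays 1 and 2, against 2140 and 2259 at day 4. Both day 20 values lay above both day 4 values. Itgae rose by 0.995 on array 1 and 1.51 on array 2 on the log2 scale, a mean of 1.25 ± 0.36 or 2.38-fold (95% interval of the log2 ratio 0.96 to 1.54, limma adjusted p = 3.69e-05).

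Itgb7, the beta chain that Itgae and Itga4 share, had intensities of 12103 and 8869 at day 20, against 3900 and 3854 at day 4. Its days did not overlap either, and it rose by 1.42 ± 0.31, or 2.67-fold (1.63 on array 1 and 1.20 on array 2, limma adjusted p = 9.44e-06). On array 2 the software marked the spot of Itgb7 as non-uniform in both dyes. With marked spots left out the probe has a value on array 1 alone, 1.63, and no test. Itgb7 was 100th and Itgae 157th from the highest ratio among the 18471 tested probes.

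Itga4, the other alpha chain that pairs with Itgb7, had intensities of 80.0 and 75.0 at day 20, against 106 and 70.3 at day 4. The days overlapped, and the arrays went opposite ways, at -0.41 and 0.09 on the log2 scale. The mean of -0.16 ± 0.35 did not pass the test (95% interval -0.45 to 0.13, limma adjusted p = 0.648). The probe was dim. In the day 4 channel of array 2 it was not well above background, and in the day 20 channel of array 2 its background-subtracted signal of 78.7 lay below the 95th percentile of 162 negative control spots, which was 92.6.

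The difference between the log2 ratios of chains that pair was read on each array as a description, with no test. Itgae minus Itgb7 was -0.64 on array 1 and 0.31 on array 2, so neither chain of that receptor rose more than the other on both arrays. Itga4 was too dim for its ratio to be set against that of Itgb7.

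Itga2b, the alpha chain of the platelet fibrinogen receptor, which is also found on young mast cells, had intensities of 15425 and 26841 at day 20, against 4970 and 7470 at day 4. The days did not overlap. Itga2b rose by 1.63 and 1.85 on the arrays, a mean of 1.74 ± 0.15 or 3.34-fold (95% interval 1.49 to 1.99, limma adjusted p = 8.31e-07), and was 50th from the highest ratio among all tested probes.

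Itgb3, its beta chain, had intensities of 593 and 636 at day 20, against 488 and 715 at day 4. The day 20 values lay between those of day 4, and the arrays went opposite ways, at 0.28 and -0.17. The mean of 0.06 ± 0.32 did not pass the test, with a 95% interval of -0.22 to 0.34 (limma adjusted p = 0.969). Itga2b minus Itgb3 was 1.35 on array 1 and 2.01 on array 2, so the probes of this pair moved unequally on both arrays.

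Markers of platelets and megakaryocytes did not move in 1 direction. Of 9 tested, 2 rose and 4 fell, with a median log2 ratio of -0.09, and their summed intensity was 4181 and 4833 at day 20, against 3274 and 3361 at day 4. Without the brightest probe, that of Rab27b, the sums were 2348 and 2821 at day 20, against 2248 and 2542 at day 4. With the scanner software's ratios 2 of these markers fell, and with median centring 1 rose and 1 fell. Gp1ba, a chain of the platelet receptor for von Willebrand factor, rose by 1.53 ± 0.19 (limma adjusted p = 2.70e-06), and Rab27b, a GTPase of granule transport, by 1.07 ± 0.32 (limma adjusted p = 8.88e-05, and 0.0508 with median centring). Pf4, a chemokine of platelet granules, had intensities of 58.9 and 92.9 at day 20, against 778 and 976 at day 4, and fell by 3.56 on the log2 scale (limma adjusted p = 6.86e-09). Its day 20 signal stood close to the offset, the ratio was -5.64 with the scanner software's ratios, and on 1 array its spot was marked. The part of these cells in the values of Itga2b and Itgb3 was not tested.

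**Figure D2:**
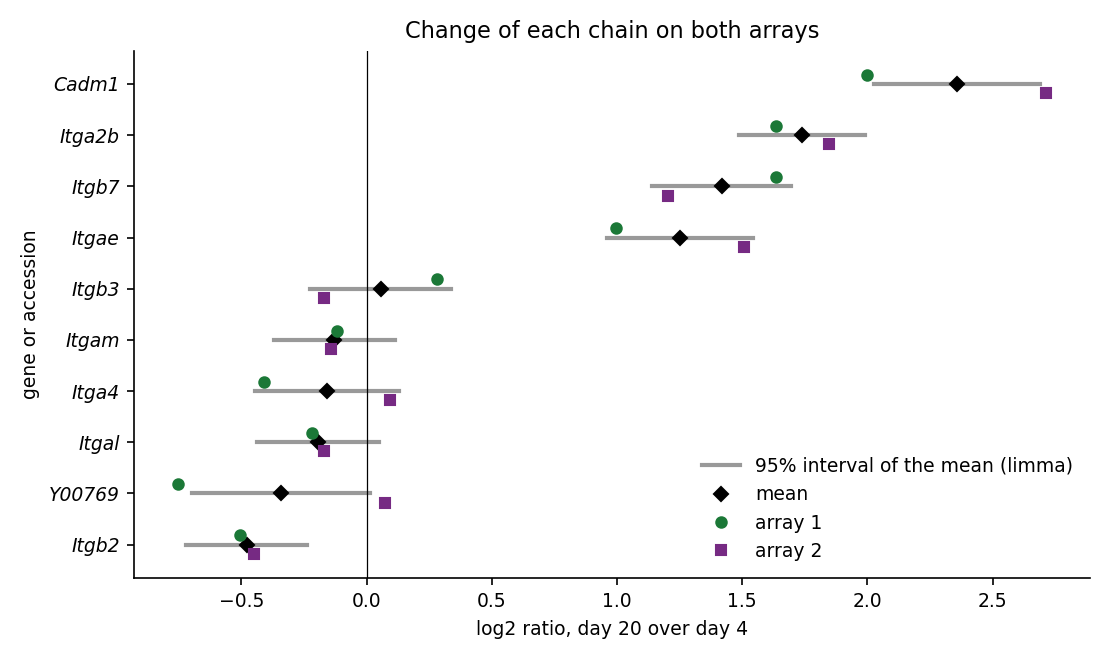
Log2 ratio of day 20 over day 4 for each probe on array 1 (circles) and array 2 (squares), with the mean (diamonds) and its 95% interval from limma (bars), ordered by the mean. Cadm1, Itga2b, Itgb7 and Itgae lay at 0.995 or above on both arrays, while Itgb3, Itga4 and Y00769 had opposite signs on the arrays.

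Among the leukocyte integrins, Itgb2, the common beta chain known as CD18, had intensities of 139 and 264 at day 20, against 197 and 361 at day 4. The values of the days overlapped across arrays, but day 20 was the lower channel on each array. Itgb2 fell by 0.48 on the log2 scale, with ratios of -0.51 and -0.45 (SD 0.04, 0.72 of day 4, limma adjusted p = 0.00934). This call was lost with the scanner software's own log ratios, where the ratio was -0.64 and the adjusted p = 0.106, and with median centring, where the ratio was -0.47 and the adjusted p = 0.0753.

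Itgal, the alpha chain of LFA-1, had intensities of 204 and 281 at day 20, against 237 and 317 at day 4. Day 20 was again the lower channel on each array, but the mean of -0.19 ± 0.03 did not pass the test (95% interval -0.44 to 0.05, limma adjusted p = 0.360). Itgal minus Itgb2 was 0.29 on array 1 and 0.28 on array 2.

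Itgam, the alpha chain of the complement receptor Mac-1 of neutrophils and macrophages, had intensities of 64.8 and 64.8 at day 20, against 70.3 and 71.4 at day 4. The day 20 values lay just below those of day 4, and the mean log2 ratio of -0.13 ± 0.02 did not pass the test (95% interval -0.37 to 0.11, limma adjusted p = 0.663). These values stand close to the offset of 50. The background-subtracted signal of Itgam was 1.62 and 1.02 times the median of the negative control spots at day 20, and 1.35 and 1.77 times at day 4. In the day 4 channel of array 1 and the day 20 channel of array 2, Itgam lay below the 95th percentile of these spots. With an offset of 0 its log2 ratio was -0.54 and with the scanner software's ratio -0.63, neither past the threshold (adjusted p = 0.0958 and 0.120), so the size of its difference was not measured at this signal.

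Markers of the cells known for Itgam and Itgb2 were lower at day 20. Of 12 tested neutrophil markers 8 fell and none rose. The summed intensity of the 13 on the array was 9453 and 10978 at day 20, against 17532 and 17273 at day 4. Most of the day 20 sums was the probe of Ctsg, a granule protease, which did not pass the test (log2 ratio 0.06, limma adjusted p = 0.954), and without it the sums were 1180 and 1411 at day 20, against 8783 and 8963 at day 4. S100a9, which makes up much of the neutrophil cytosol, had intensities of 136 and 155 at day 20, against 4776 and 4905 at day 4 (log2 ratio -5.06 ± 0.11, limma adjusted p = 1.93e-10). Of 14 monocyte and macrophage markers 8 fell and 2 rose, with sums of 2835 and 2749 at day 20, against 4791 and 4641 at day 4, and with median centring 4 fell and 1 rose. The part of these cells in the fall of Itgb2 was not tested.

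The probe of accession Y00769 had intensities of 131 and 153 at day 20, against 222 and 145 at day 4. Its ratio was -0.75 on array 1 and 0.07 on array 2, so the arrays went opposite ways, and the mean of -0.34 ± 0.59 did not pass the test (limma adjusted p = 0.230). Other probes whose descriptions name an integrin or a partner under an accession alone numbered 15, of which 11 were tested. Of these 1 fell, AK034186, described as integrin alpha 6, with a log2 ratio of -1.37 ± 0.42 (limma adjusted p = 2.81e-05). The other 10 lay between -0.35 and 0.11 and did not pass.

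Cadm1 had the largest ratio of the set. Its intensities were 1979 and 2815 at day 20, against 495 and 429 at day 4. The lowest day 20 value was about 4 times the highest of day 4, and Cadm1 rose by 2.36 ± 0.50, or 5.13-fold (2.0 on array 1 and 2.71 on array 2, 95% interval 2.03 to 2.69, limma adjusted p = 6.83e-07). Only 15 of the 18471 tested probes had a higher ratio.

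**Figure D3:**
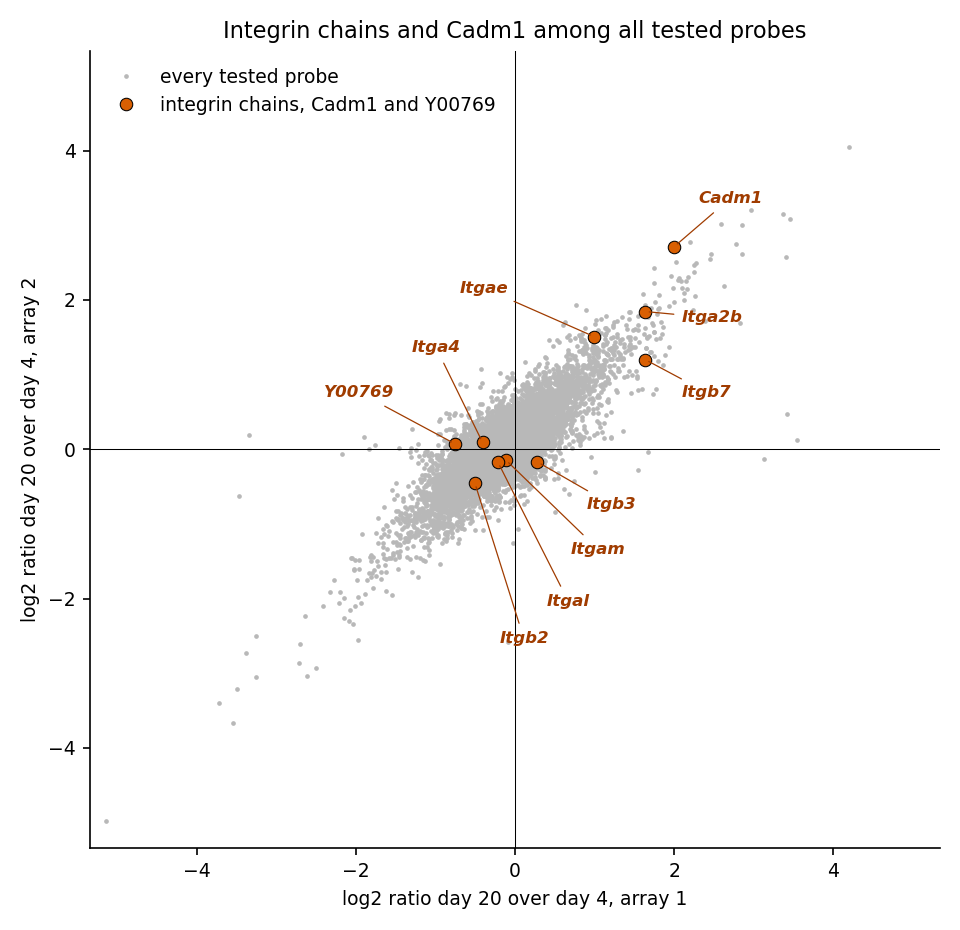
Log2 ratio of day 20 over day 4 on array 1 (horizontal) and array 2 (vertical) for every tested probe (grey points) and for the probes of the set and accession Y00769 (orange). Cadm1, Itga2b, Itgb7 and Itgae lay towards the upper right end of the cloud, and the other chains lay within its dense centre or at its lower left.

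Of 9 tested genes of the Cadm and nectin family, 1 rose and none fell, with a median of 0.06. The gene that rose was Cadm3, a neural relative of Cadm1, with intensities of 191 and 257 at day 20, against 53.8 and 78.8 at day 4. At day 4 it was well above background on 1 array of 2, so the size of its rise was not measured. Its log2 ratio was 1.77 with the offset of 50 (limma adjusted p = 6.11e-07) and 3.98 with the scanner software's ratios. With an offset of 0 the family gave 1 fall as well. The other 8 genes lay between -0.33 for Nectin3 and 0.13 for Cadm4.

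Integrin chains outside the set gave no rise. Of 10 tested, 2 fell (1 with median centring), and the median log2 ratio was -0.08, or -0.26 with the scanner software's ratios. Itgb5, a beta chain that pairs with Itgav in a vitronectin receptor, had intensities of 80.4 and 119 at day 20, against 211 and 273 at day 4 (log2 ratio -1.29 ± 0.14, limma adjusted p = 8.46e-06, and a ratio of -2.12 with the scanner software's ratios). Itga6, an alpha chain of laminin receptors, had 94.6 and 101 at day 20, against 231 and 158 at day 4 (log2 ratio -0.97 ± 0.45, limma adjusted p = 0.000435). Its ratio was -1.62 with the scanner software's ratios, and its call was lost with median centring (adjusted p = 0.0567). The remaining 8 chains lay between -0.19 for Itga7 and -0.01 for Itga5 and did not pass. Among them, Itga2, Itga9, Itgav and Itgb6 had intensities between 60.3 and 80.7 in all channels, close to the offset. At day 4 Itgav and Itgb6 were well above background on only 1 array. For these dim chains the lack of a call does not show an unchanged level.

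Ligands of these receptors were listed as well, and 1 rose and 3 fell of 16 tested, with a median of -0.01. The rises numbered 2 with an offset of 0, and 0 with the scanner software's ratios and with median centring. Spp1 (osteopontin), a matrix protein bound by several integrins, had intensities of 1352 and 1344 at day 20, against 8832 and 8214 at day 4 (log2 ratio -2.66 ± 0.07, limma adjusted p = 2.65e-08). Icam2, a counter-receptor of Itgal with Itgb2, had 152 and 200 at day 20, against 416 and 457 at day 4 (log2 ratio -1.32 ± 0.18, limma adjusted p = 8.34e-06). After their values were seen, the ligands of the Itgb7 receptors were added here: Cdh1, the E-cadherin bound by Itgae with Itgb7, was at 0.33 ± 0.49 (limma adjusted p = 0.196). Madcam1, the gut counter-receptor of Itga4 with Itgb7, was at 0.07 ± 0.08, and Vcam1, a counter-receptor of Itga4, at -0.22 ± 0.09, neither past the threshold (limma adjusted p = 0.917 and 0.292).

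Genes that activate integrins or link them to actin gave 5 rises and 2 falls among 31 tested, with a median of 0.03. The rises numbered 2 with the scanner software's ratios, 2 with median centring and 3 with an offset of 0. Zyx, a focal adhesion protein, had intensities of 3978 and 4147 at day 20, against 2158 and 2282 at day 4, and rose by 0.87 ± 0.01 (limma adjusted p = 0.000132). Fermt2 (kindlin-2), which binds the tails of beta chains, rose by 0.79 ± 0.09 (limma adjusted p = 0.000321). Rasgrp2, an exchange factor for Rap1 in integrin activation, fell by 0.64 on the log2 scale (limma adjusted p = 0.00140). Vcl, the actin linker vinculin, was singled out after its values were seen. It had 66.9 and 97.8 at day 20, against 680 and 86.0 at day 4, a ratio of -3.35 on array 1 and 0.18 on array 2, and its spot was marked on 1 array (limma adjusted p = 0.0594).

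Of 13 tested tetraspanins and other membrane partners of integrins, 3 rose and 2 fell, with a median of -0.09, and with median centring 1 rose. Cd53, a tetraspanin of leukocytes, had intensities of 1155 and 1362 at day 20, against 525 and 462 at day 4, and rose by 1.35 ± 0.30 (limma adjusted p = 1.36e-05). Cd63, a tetraspanin of granule membranes, rose by 1.16 ± 0.50 (limma adjusted p = 0.000149, and 0.136 with median centring). Tspan3 was at -1.15 ± 0.40 and Cd9, a tetraspanin that associates with several integrins, at -0.95 ± 0.06, both past the threshold (limma adjusted p = 7.95e-05 and 7.31e-05). With the scanner software's ratios Tspan3 was at -1.82.

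Other adhesion molecules of leukocytes gave 6 rises and no fall among 14 tested, with a median of 0.23. The rises numbered 3 with the scanner software's ratios and 3 with median centring, and the median was 0.41 with the scanner software's ratios and 0.39 with an offset of 0. Spn (CD43), a surface mucin, had intensities of 725 and 852 at day 20, against 403 and 306 at day 4, and rose by 1.16 ± 0.45 (limma adjusted p = 0.000104). Cd84, a receptor of the SLAM family found on mast cells, rose by 1.16 ± 0.46 (limma adjusted p = 0.000121). Epcam, an epithelial adhesion molecule, had 185 and 274 at day 20, against 92.6 and 119 at day 4, and rose by 1.10 ± 0.14 (limma adjusted p = 3.19e-05), or by 1.77 with the scanner software's ratios. The 3 other genes that rose were between 0.48 and 0.63.

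**Figure D4:**
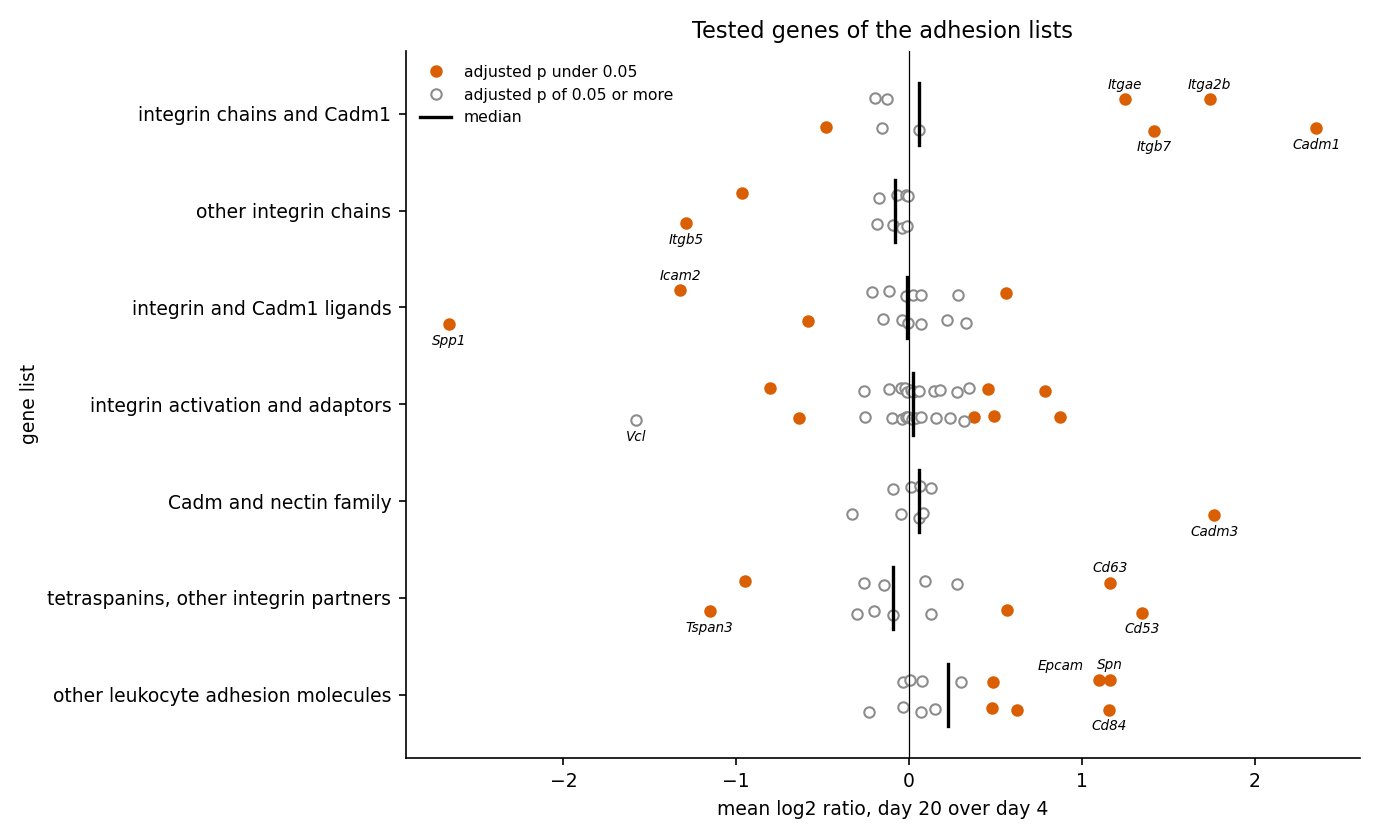
Mean log2 ratio of day 20 over day 4 for the tested genes of the set and of 6 lists of related genes, with filled points past an adjusted p of 0.05 in limma and a bar at each median. Genes beyond 1 in either direction are named, among them Cadm1, Itga2b, Itgb7 and Itgae in the set and Spp1, Icam2, Cadm3 and Cd53 in the other lists. Vcl, not past the threshold, differed strongly between the arrays.

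The rises of Itgae, Itgb7, Itga2b and Cadm1 stood beside higher mast cell transcripts. The 14 mast cell markers tested gave 11 rises, 1 fall and a median log2 ratio of 1.40. The fall was that of Hdc, named here outside the rule for list genes (log2 ratio -1.28, limma adjusted p = 9.23e-06). Cma1, Cpa3, Mcpt1 and Tpsab1 were saturated in at least 1 channel, so their levels are lower bounds there. Over the other 10 probes the summed intensity was 128151 and 121436 at day 20, against 41879 and 36612 at day 4. Itgae and Itgb7 are also known from lymphocytes and dendritic cells. Of 17 tested lymphocyte markers 1 rose and 2 fell, and with median centring none fell. The sums over the 19 on the array were 3156 and 3160 at day 20, against 3046 and 2994 at day 4. Of 9 tested dendritic cell markers none rose and 6 fell (3 with median centring). The sums over the 10 on the array were 1848 and 1837 at day 20, against 2146 and 2307 at day 4. The brightest probe, that of Xcr1, did not pass the test (log2 ratio -0.04, limma adjusted p = 0.984). Without it the sums were 1211 and 1364 at day 20, against 1586 and 1736 at day 4. Eosinophil and basophil markers gave 1 rise and 3 falls of 7 tested. The sums over the 8 on the array were 5042 and 5003 at day 20, against 25080 and 28903 at day 4. The difference in these sums was that of Mcpt8, a basophil protease, and without it they were 1429 and 1178 at day 20, against 1420 and 1201 at day 4. With median centring 1 of these markers fell, and with marked spots left out none rose. Erythroid markers gave 7 falls of 12 tested, with sums over the 13 on the array of 2668 and 2456 at day 20, against 4134 and 3903 at day 4. The part of cell composition in the changes of the set was not tested.

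Genes of TGF-beta signalling and response, listed because TGF-beta induces Itgae, gave 3 rises and 3 falls of 16 tested, with a median of 0.04, and 1 rise and 1 fall when median centring replaced loess, as when scanner ratios were used. Bhlhe40, a transcriptional repressor, had intensities of 1151 and 1623 at day 20, against 659 and 803 at day 4, and rose by 0.91 (limma adjusted p = 0.000126). Tgfbi, a secreted matrix protein, had 78.6 and 97.2 at day 20, against 320 and 296 at day 4. Its log2 ratio was -1.82 (limma adjusted p = 1.25e-06) and -2.94 with the scanner software's ratios.

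For each gene of the set that passed the test and was at least 2-fold apart on both arrays, the 3 tested and named genes with the most similar pair of log2 ratios were listed, by Euclidean distance over the 2 arrays. For Cadm1 these were Itm2c (2.48), Ier2 (2.36) and Hs3st1 (2.38), where each value is a mean log2 ratio. The nearest genes to Itga2b were Padi2 (1.71), Avil (1.72) and Ctse (1.80). Itgb7 had Cbx6 (1.44), Iqcd (1.5) and Il18bp (1.5) nearest to it. Itgae was just under 2-fold on array 1, at 1.99-fold, and so had no such list. Likeness over 2 arrays is a description of these ratios.

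**Figure D5:**
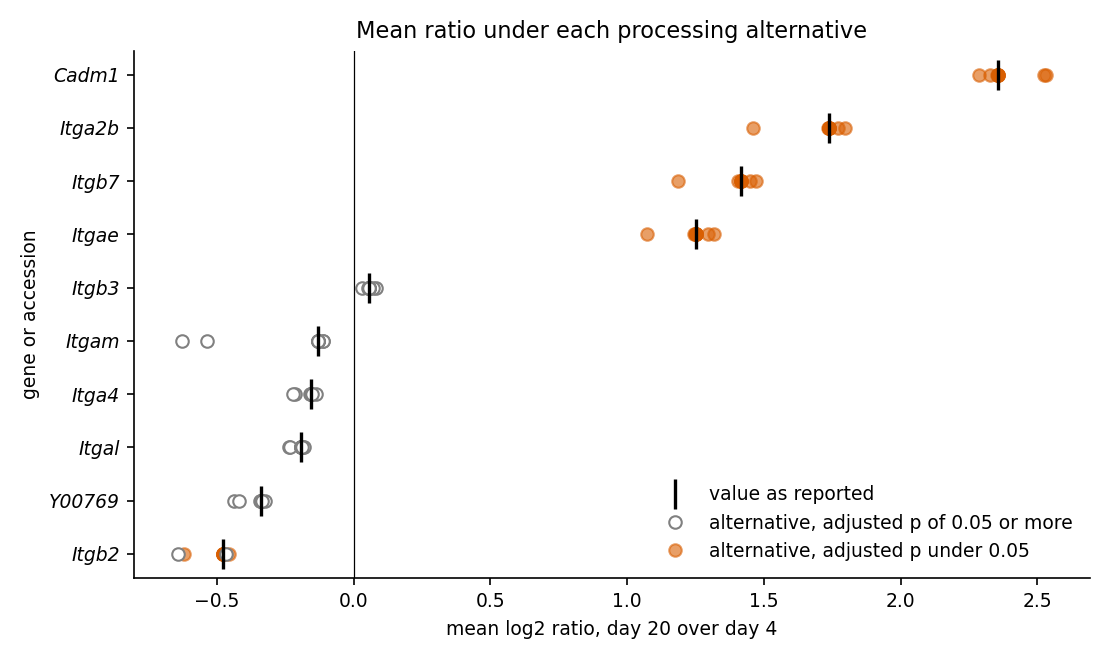
Mean log2 ratio of day 20 over day 4 of each probe as reported (black bars) and under the processing alternatives (points, filled where the adjusted p was under 0.05). Cadm1, Itga2b, Itgb7 and Itgae stayed above 1.07 wherever they were tested, and Itgam ranged from -0.63 to -0.11.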

How the data were processed

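Cultures of mouse mucosal mast cells at day 20 and day 4 were measured as total RNA on 2 two-colour Agilent arrays with swapped dyes. The authors' software, Agilent Feature Extraction (7.5 per the submitters' processing notes, 7.5.1 per the file headers of array 2), measured the spots. The deposited scanner files hold mean signals and local backgrounds as raw intensity values, and the authors' processed log10 ratios of Cy5 over Cy3, not turned for the dye swap. The deposited value tables equal these log10 ratios at a tolerance of 1e-06 in 22393 of 22393 rows, with medians of 0.000760 for array 1 and 0 for array 2. In the file of array 1, 313 Cy3 and 324 Cy5 background medians stood as month names and were read back as numbers.

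With R 4.3.3, limma 3.58.1 and the package data.table (version 1.17.8), median backgrounds were removed by normexp (offset 50). Loess was run within each array with weight 0 for control and marked spots, array 2 was turned to day 20 over day 4, spots of a probe were averaged, and lmFit and eBayes tested each log2 ratio against 0, two-sided. Marked spots were kept. Printed intensities are the same values after Aquantile scaling between arrays, offset included. The p-values rest on 1 residual degree of freedom per probe and a prior of 11.0 degrees of freedom with an SD of 0.164. A dye term would have left 0. The number of arrays limits the precision, and 10 saturated probes were among those tested.

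Of 20868 gene probes, 8947 were named by RefSeq accession (GRCm38.p6), 429 by the symbol and 794 by an older symbol in their description, and 10698 were left unnamed. Descriptions of the kind "similar to" or "homolog" were left unnamed after such names had been seen in the data. Beside the set, 15 gene lists were used, 8 of them cell markers. From each, at most 4 genes past the threshold and at least 1.5-fold apart in 1 direction on both arrays were named, and genes outside this rule are said to be so or are given as the ends of a range. Markers of other cells are named by the same rule, and 1 gene that the rule takes is not reported here. The members and lists were chosen with earlier results of these data known. In all 10 alternative fits were run, 1 of them (background means in place of medians) chosen after seeing the data, and each array was read alone. Sums of marker lists without their brightest or saturated probes were also added after seeing the data. The fit was tested on simulated data. Plots were made with Python 3.11.15, pandas 2.3.3, numpy 2.4.6, scipy 1.17.1 and matplotlib 3.10.9.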

Additional observations from a re-analysis of the deposited data

How the results depend on the processing

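Cadm1, Itga2b and Itgae passed the threshold in 11 of 11 settings, the reported one included, and Itgb7 in the 10 that could test it. Their highest adjusted p-values in limma came from median centring for Itgae (0.0477) and Itgb7, Itga2b and Cadm1 (0.0139 to 0.0149). Itgb2 passed in 9 of 11. With the scanner software's log ratios and with median centring, the probes called higher at day 20 numbered 627 and 545, against 1444 as reported, those called lower 641 and 755, against 1687, and the genes of the set called lower 0 and 0, since Itgb2 had adjusted p-values of 0.106 and 0.0753. The cause was not tested. Y00769 passed only with an intensity trend and robust prior (adjusted p = 0.0458).

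With marked spots left out Itgb7 could not be tested, which left 3 genes of the set called higher and a median of -0.04. With probes required to be well above background in all 4 channels Itga4 was not tested, and the median of the set was 0.65. It ranged from 0.093 to 0.28 over the arrays read alone. Itgae minus Itgb7 was 0.31 on array 2 alone, against -0.17 as reported, and ranged from -0.64 to 0.31. Itgam minus Itgb2 was 0.017 with the scanner software's ratios and 0.084 with an offset of 0, against 0.35, and Itgal minus Itgb2 was 0.41 and 0.38, against 0.28. Itgam was too dim for its ratio to be set against that of Itgb2. Cadm3 was not tested under that filter on all 4 channels either. Of all 645 values recomputed, those of the other lists included, 80 moved beyond the spread between arrays or by over 1.5 times. Lost and gained calls were scored only for the probes of the set and Y00769, where 2 were lost and 1 gained. The other lists were scored by their counts and medians, so calls lost by their genes, such as Cd63 with median centring, are not among the 2. The sign differed from the reported one in 5 of the 645 values. These were Itgae minus Itgb7, Itgb3 (-0.17), Itga4 (0.093) and Y00769 (0.07) on array 2 alone, and the median of the set with marked spots left out. Signal over background limits Itgam and Itga4. Each array's ratio is already a comparison of both days within the array. No paired analysis was possible beyond it because the ratios form 1 group.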
